A study of Mus musculus with 45 samples.

Results

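The first day after embryonic stem cells (ESCs) left 2iL was described from 6 of the 45 libraries of the series, namely the 3 libraries titled 2iL EB, 2iL EpiSC and 2iL Neural at day 0 and the same 3 courses at day 1. The cells were the male E14tg2a line (XY1), wild type and of 129/Ola background, passaged at most 3 times in 2iL. At day 0 they were in 2iL, which is serum-free N2B27 with the GSK3 inhibitor CHIR99021, the MEK inhibitor PD0325901 and the cytokine LIF. For day 1 the inhibitors and LIF were taken away in 3 ways. The libraries labelled EB came from suspension culture in serum without LIF, those labelled EpiSC from adherent culture on gelatin in N2B27 with Fgf2 and Activin A (FA), and those labelled Neural from adherent culture in N2B27 alone. Each course had its own library at day 0 and at day 1, so the days were paired by course, and the course was kept as a replicate block. The study asked how Xist behaves as male cells leave naive pluripotency, and the 2 days compared here cover all genes.

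Removal of 2iL lifts a pair of inhibitor blocks and ends a cytokine signal together. Blocking MEK keeps Fgf signalling through ERK off, blocking GSK3 keeps beta-catenin and thus Wnt target genes on, and LIF activates Stat3, and these inputs hold mouse ESCs in the naive state of the preimplantation epiblast. When they are withdrawn, the naive transcription factors are lost while Oct4 (Pou5f1) and Sox2 persist, and genes of the early postimplantation epiblast come on, a phase often called formative pluripotency.

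Between 15029180 and 33626251 reads were counted on genes in each of the 6 libraries, and the EB libraries were the deepest. In the shallowest of them, 3 reads, the limit that a count of 0 allows, correspond to 0.200 CPM before the correction by TMM factors that all other CPM values carry (CPM are counts scaled to a common library total). Values are given in the order EB, EpiSC, Neural. Log2 changes are day 1 minus day 0 from edgeR's quasi-likelihood test, with a p adjusted over all 13974 genes tested. The value after ± is a standard error worked back from the test statistic, whose spread draws on all genes. It is not the spread between the 3 courses, which the per-course values show. Libraries of the same course deviated together from the mean of their day, with correlations of 0.20, 0.36 and 0.40 across the genes tested. No label says that the libraries of a day came from separate thaws or cultures, so at day 0 the spread may be technical, whereas at day 1 it also holds the difference between the 3 media. Sox2 and Pou5f1, which define ESCs, exceeded 200 CPM in each library, and of 7 fibroblast markers all but Pdgfrb were below 3 CPM. RNA of a whole culture was measured, so fewer cells with a transcript and less of it per cell cannot be told apart in any value given here.

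Within 1 day, 2648 genes rose and 2972 fell, which is 18.9% and 21.3% of the genes tested, at an adjusted p under 0.05. Of the 5620 genes that changed, 5616 moved the same way in all 3 courses. The test was paired over the same 3 courses, so genes whose courses disagreed seldom passed, and this count is no measure of reproducibility. Of the genes that changed, 275 rose and 189 fell by more than 3 on the log2 scale. The median change of all genes tested was -0.015. The number of genes that changed was 3688 without the EpiSC course, 3413 without the Neural course and 7153 without the EB course.

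The largest rises started from few reads, at most 19 in the 3 day 0 libraries together for each of the 10. Soga3 was at 0.152, 0.458 and 0.101 CPM at day 0 and 43.2, 33.4 and 40.2 CPM at day 1, a log2 change of 7.53 ± 0.33 (adjusted p = 2.32e-05). Cntfr, the alpha subunit of the receptor for ciliary neurotrophic factor, was at 0.304, 0.131 and 0.354 CPM at day 0 and 26.2, 41.7 and 51.3 CPM at day 1, with a log2 change of 7.04 ± 0.25. The day 0 libraries of both genes were all under 0.5 CPM and none overlapped with day 1. Both were chosen by the size of their rise, so the lack of overlap adds no support. Enpp2, which encodes the secreted enzyme autotaxin, rose by 7.18 ± 0.30 on the log2 scale and reached 79.5, 6.84 and 6.75 CPM, so that its level in EB was far above that in the other courses. The secreted factor Ndnf and the zinc finger factor Bcl11a rose by 7.40 and 6.99. Prss46, a serine protease, had 2 reads in all day 0 libraries and 1055 at day 1, a ratio of 514-fold (95% interval of the counts 142 to 4249). For Atp1a4, a sodium pump subunit, 2 reads against 827 gave 403-fold (95% interval of the counts 111 to 3332), and for Tcerg1l 3 reads against 467 gave 152-fold (95% interval of the counts 51.6 to 738). The intervals of these ratios cover counting error only. The 10 largest rises also held 9330159F19Rik and D330045A20Rik.

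Among the 10 largest falls, Sp5, Cdx1 and Gsc are described with the Wnt targets and lineage markers. S1pr1, a receptor for sphingosine-1-phosphate, was at 15.6, 13.6 and 17.9 CPM at day 0 and 0.0610, 0.188 and 0.0476 CPM at day 1, a log2 change of -7.41 ± 0.35 (adjusted p = 2.93e-05). Spic, an Ets family transcription factor, was at 23.1, 31.1 and 25.4 CPM at day 0 and 0.396, 0.188 and 0.238 CPM at day 1, with a change of -6.43 ± 0.26. The day 1 libraries of both genes lay below 0.5 CPM, near the floor of the shallowest library. The channel gene Trpm1 had a log2 change of -7.30 ± 0.28, the leucine-rich repeat gene Lrrc15 of -6.57 ± 0.23 and the myelin-associated gene Mobp of -6.19 ± 0.56. Cnga4, which encodes a subunit of a cyclic nucleotide-gated channel, had 353 reads at day 0 and 1 at day 1, a ratio of 362-fold (95% interval of the counts 64.6 to 14352). The antisense gene 2310043M15Rik completed the list.

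Of 16 naive pluripotency factors, 12 fell, 1 rose and 3 did not pass the test. Among all genes tested 21.3% fell and 18.9% rose. The median change of the 16 was -1.90 against -0.015 for all genes. This list and those below were chosen with earlier results of these data known. Their counts and medians are thus no independent support. Tfcp2l1, a transcription factor of the naive network, was at 2067, 1812 and 1959 CPM at day 0 and 166, 248.6 and 279 CPM at day 1, a log2 change of -3.10 ± 0.18 (adjusted p = 5.51e-05). Nanog, the homeobox factor that sustains self-renewal, was at 959, 991 and 907 CPM at day 0 and 170.4, 246 and 249.1 CPM at day 1, a change of -2.12 ± 0.13 (adjusted p = 7.69e-05). For both genes the day 1 libraries lay far below those of day 0 and the lowest was that of the EB course. Prdm14, which restrains Fgf signalling and de novo methylation in naive cells, went from 49.2, 48.2 and 55.1 to 5.49, 6.21 and 7.85 CPM. Klf4, a Krüppel-like factor downstream of Stat3, went from 91.5, 73.7 and 97.9 to 14.1, 18.6 and 19.4 CPM, and Klf2, which lies downstream of MEK inhibition, from 97.5, 58.2 and 90.2 to 23.4, 11.54 and 20.4 CPM. The remaining falls were Dppa3 (-3.02), Tbx3 (-2.12), Tcl1 (-1.97), Fbxo15 (-1.83), Nr5a2 (-1.80), Esrrb (-1.48) and Klf5 (-0.92).

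The naive factors did not all move down. Zfp42, known as Rex1 and used as a reporter of the naive state, was at 347, 359.8 and 346 CPM at day 0 and 313, 331 and 393 CPM at day 1, a log2 change of -0.029 ± 0.093 (adjusted p = 0.823). Its libraries of the 2 days overlapped. Gbx2 and Pecam1 also missed the threshold, with changes of 0.42 ± 0.14 and -0.67 ± 0.27. Pecam1, a cell adhesion molecule, was at 136, 145 and 133 CPM at day 0 and 45.2, 134 and 106 CPM at day 1, so the EB library was the lowest at day 1. Nr0b1 (Dax1), an orphan nuclear receptor, rose from 42.8, 43.4 and 72.6 to 222, 141 and 175 CPM, a change of 1.78 ± 0.20 (adjusted p = 7.38e-04). When the spread was taken from all 23 libraries from 2iL, Nanog and Nr0b1 no longer passed the threshold, with adjusted p of 0.0606 and 0.0922. Those libraries include the later days of each course, so differences between the courses that arise after day 1 also enter that spread.

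**Figure D1:**
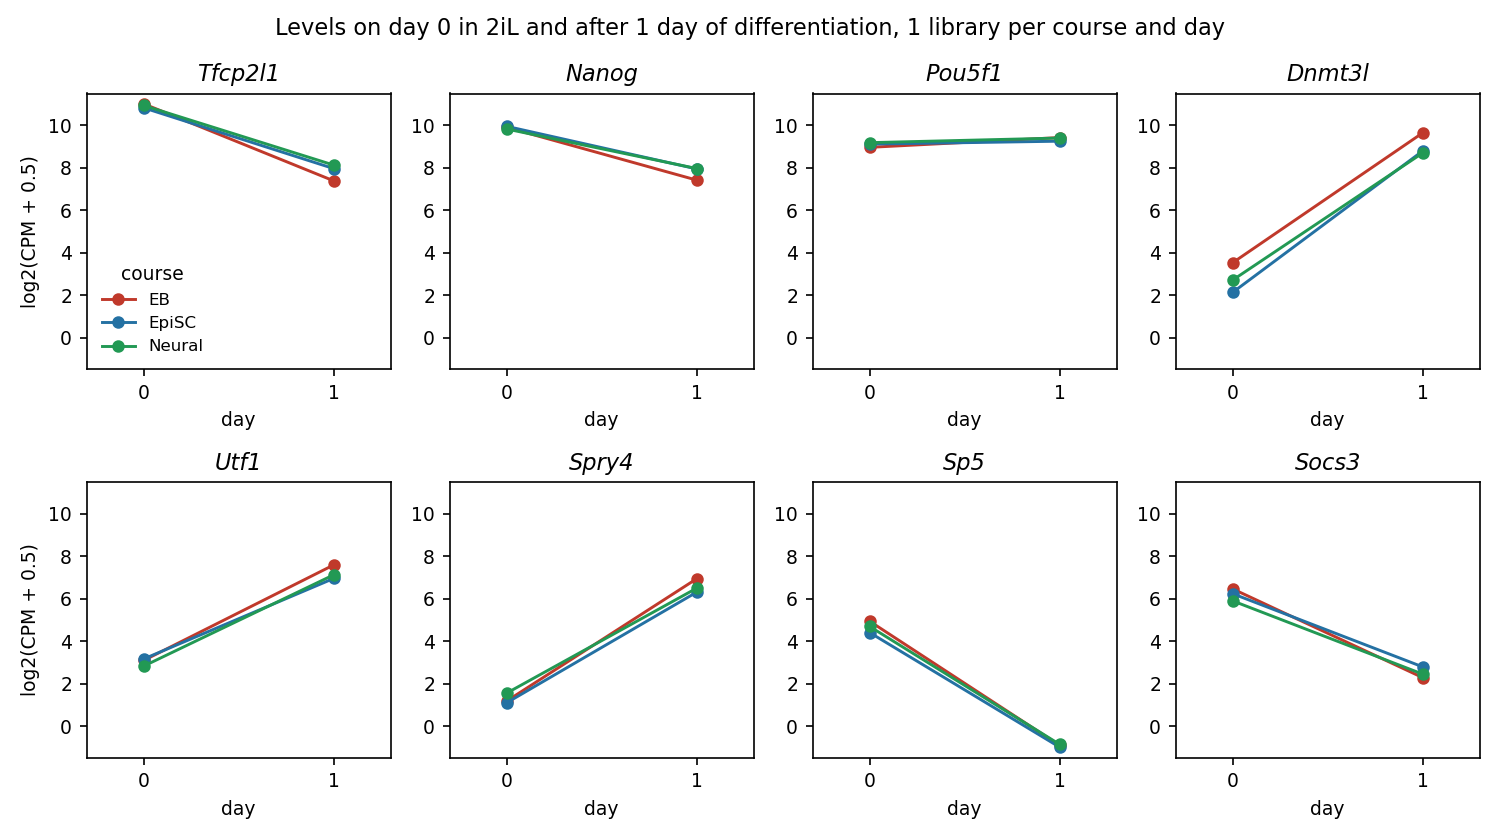
Level of 8 genes in each library as log2(CPM + 0.5) on the vertical axis against day on the horizontal axis, with a line joining the libraries of 1 course (EB red, EpiSC blue, Neural green). Tfcp2l1, Nanog, Sp5 and Socs3 drop in all 3 courses, Dnmt3l, Utf1 and Spry4 climb, and Pou5f1 stays between 498 and 686 CPM.

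General pluripotency genes were kept or rose. Of 10 such genes 7 rose and none fell, with a median change of 0.72, where 18.9% of all genes tested rose. Sox2 was at 231, 266 and 296 CPM at day 0 and 235, 206 and 214 CPM at day 1 and did not pass the test (-0.27 ± 0.11, adjusted p = 0.0952), and Sall4, a zinc finger partner of Oct4, changed by -0.080 ± 0.084. Pou5f1 was at 498, 554 and 581 CPM at day 0 and 686, 609 and 676 CPM at day 1, a change of 0.27 ± 0.090 with an adjusted p of 0.04996. The day 1 libraries of Pou5f1 were all above those of day 0, but the call was lost without the EB, the EpiSC or the Neural course (adjusted p = 0.0648, 0.0994 and 0.172). Lin28a, an RNA-binding protein that blocks let-7 maturation, went from 31.4, 14.1 and 17.0 to 268, 191 and 270.1 CPM, a change of 3.60 ± 0.18 (adjusted p = 3.60e-05). Dppa4, a chromatin protein that acts with Dppa2, rose by 1.76 ± 0.12, and Zfp281, a repressor of Nanog, by 0.82 ± 0.084. Dppa2 and the RNA-binding gene L1td1 rose by 1.25 and 1.55, and with the spread of all 23 libraries their adjusted p was 0.0716 and 0.071. Trim71, a let-7 target that promotes self-renewal, rose by 0.62.

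All 14 genes of the formative epiblast list rose, with a median change of 3.21, where 18.9% of all genes tested rose. Members of this list, too, were chosen with earlier results of these data known. Utf1, a chromatin-associated factor of epiblast cells, was at 8.02, 8.44 and 6.58 CPM at day 0 and 193, 124 and 139 CPM at day 1, a log2 change of 4.30 ± 0.15 (adjusted p = 1.30e-05). Pou3f1, also called Oct6 and a POU factor of the postimplantation epiblast, was at 0.941, 0.654 and 0.556 CPM at day 0 and 77.7, 19.6 and 20.5 CPM at day 1, a change of 5.74 ± 0.28 (adjusted p = 3.43e-05). Otx2, the homeobox factor that redirects Oct4 to new enhancers, was at 2.88, 6.22 and 3.04 CPM at day 0 and 97.2, 36.2 and 27.1 CPM at day 1, a change of 3.63 ± 0.47. In each of the 3 genes the groups did not overlap and the EB library was the highest at day 1. Fgf5, an Fgf ligand that marks this epiblast stage, had 6 reads in the day 0 libraries together and reached 22.0, 2.32 and 2.38 CPM. The epithelial factor Grhl2, which opens epiblast enhancers, went from 4.34, 3.93 and 5.11 to 152, 32.9 and 34.2 CPM. Sox4, a SoxC factor, rose by 3.93 ± 0.14 and Fgf15 by 4.62 ± 0.74. Zic2 and Zic5, zinc finger factors, rose by 1.62 and 1.65. Sox3, Sall2, Lin28b and Foxd3 rose by 2.80, 2.13, 1.95 and 1.46, of which Foxd3 did not pass with the spread of all 23 libraries (adjusted p = 0.211). Per course the median change of the list was 3.15 in EB, 2.38 in EpiSC and 2.16 in Neural.

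The de novo DNA methylation genes rose and the maintenance genes did not pass the test. Dnmt3l, the cofactor without catalytic activity of its own, was at 11.0, 3.86 and 6.02 CPM at day 0 and 800.2, 443 and 415 CPM at day 1, a log2 change of 6.33 ± 0.16 (adjusted p = 1.11e-05). Dnmt3a, a de novo methyltransferase, was at 27.8, 14.8 and 29.5 CPM at day 0 and 229, 190.3 and 249.2 CPM at day 1, a change of 3.25 ± 0.15 (adjusted p = 2.44e-05). Dnmt3b, the other de novo enzyme, was at 123, 98.0 and 99.2 CPM at day 0 and 1027, 317 and 365 CPM at day 1, a change of 2.21 ± 0.26. No library of day 1 overlapped with day 0 for the 3 genes, and the EB library held the most Dnmt3b and Dnmt3l at day 1. Dnmt1, which copies methylation after replication, changed by -0.13 ± 0.074 (adjusted p = 0.193), and Uhrf1, which recruits it, by -0.12 ± 0.091 (adjusted p = 0.336). Among the Tet enzymes that oxidise methylcytosine, Tet1 rose by 0.44 ± 0.078, Tet2 fell from 589.98, 572 and 499.8 to 296, 434 and 438 CPM and Tet3 changed by 0.062 ± 0.13 (adjusted p = 0.73). The call of Tet1 was lost without the Neural course (adjusted p = 0.0648) and that of Tet2 without the EpiSC course (0.0786), and with the spread of all 23 libraries they were at 0.133 and 0.21. Among all genes tested 18.9% rose and 21.3% fell. Of 13 germline genes known to be silenced by promoter methylation that were tested, 6 rose, 2 fell and 5 did not pass. Mael, a piRNA pathway gene, was the largest, at 2.52, 1.57 and 1.67 CPM at day 0 and 7.95, 6.59 and 8.42 CPM at day 1 (1.99 ± 0.22), and Ddx4 (Vasa), a germ cell RNA helicase, was at 2.70, 2.22 and 2.48 CPM at day 0 and 5.33, 8.22 and 5.47 CPM at day 1 (1.31 ± 0.24). The 2 that fell, Tuba3a and Rpl10l, have near-identical paralogs, so their counts are uncertain, and neither passed in the fit on library totals alone (adjusted p = 0.0537 and 0.0568). The rises of Taf7l, Stk31 and Slc25a31 were lost without the EpiSC course (adjusted p = 0.0548, 0.0606 and 0.107), which left 3 rises, those of Stk31 and Slc25a31 without the Neural course as well (0.0606 and 0.0726), and that of Hormad1 with no replicate block (0.0631). All 4 were lost with the spread of all 23 libraries.

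Feedback targets of ERK, most of which dampen the pathway, came on. Of 15 tested 11 rose and none fell, with a median change of 1.05, where 18.9% of all genes tested rose. Spry4, a Sprouty inhibitor of receptor tyrosine kinase signalling, was at 1.76, 1.64 and 2.43 CPM at day 0 and 123, 78.9 and 89.9 CPM at day 1, a log2 change of 5.67 ± 0.19 (adjusted p = 1.11e-05). Dusp6, the cytoplasmic phosphatase of ERK, was at 7.50, 11.0 and 12.8 CPM at day 0 and 147, 108 and 92.9 CPM at day 1, a change of 3.49 ± 0.27. Dusp4, a nuclear phosphatase of ERK, was at 0.820, 0.916 and 1.21 CPM at day 0 and 89.4, 35.7 and 38.1 CPM at day 1, a change of 5.80 ± 0.34 (adjusted p = 5.93e-05). Day 0 and day 1 did not overlap in any of these, and the EB library was the highest at day 1. Phlda1 rose by 2.79 ± 0.31 and Spred1, a Sprouty-related inhibitor, by 1.29 ± 0.12. The immediate early factor Egr1 was at 0.0911, 0.196 and 0.354 CPM at day 0 and 13.4, 9.16 and 0.713 CPM at day 1. The Neural library thus stayed below 1 CPM while those of EB and EpiSC did not. EB was grown in suspension with serum and EpiSC with both Fgf2 and Activin A, so a cause cannot be told apart and was not tested. The change of Egr1 was 5.01 ± 0.93 (adjusted p = 0.00586). Etv4, an Ets factor induced by Fgf, rose by 0.90 ± 0.079, whereas the related Etv5 was already at 539.6, 557 and 599 CPM under MEK inhibition and did not pass the test (-0.13 ± 0.10, adjusted p = 0.343). Fos, Ier3 and Spred2 did not pass either, with changes of -0.77, 0.37 and 0.43, and Fosl1 was under the filter on low counts.

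Dusp5, another nuclear ERK phosphatase, rose by 1.41 ± 0.17 (adjusted p = 9.69e-04) from 3.16, 3.86 and 4.30 to 9.14, 9.22 and 11.7 CPM. Its upstream sequence is shown because it was the only one of the 10 ERK feedback genes with a RefSeq promoter entry that held a match to the CArG box of serum response factor within 250 bases before to 50 bases after the start, searched on both strands. It held 2 adjacent matches, given in capitals in the 150 bases before the start on the plus strand (chr19:53528995-53529144, GRCm38.p6). The CArG box occurs in 1.63% of the 32851 promoters of the same length, and a match is a description and not a site of binding.
Dusp5: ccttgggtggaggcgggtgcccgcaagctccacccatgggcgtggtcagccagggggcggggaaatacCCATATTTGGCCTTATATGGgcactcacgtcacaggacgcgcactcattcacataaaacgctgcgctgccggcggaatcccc

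Spry1, Spry2 and Il17rd, further inhibitors of Fgf signalling, rose by 1.05, 1.01 and 0.54. With the spread of all 23 libraries, 6 of 16 ERK genes tested rose, where 13.9% of all genes tested rose. Of the 11 ERK genes that rose in the main fit 6 were kept, against 4128 of all 5620 genes that changed. Spry1, Spry2, Il17rd, Etv4 and Dusp5 did not pass (adjusted p = 0.107, 0.0944, 0.586, 0.21 and 0.0777). Without the EpiSC course Spry1 was at an adjusted p of 0.0514.

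Wnt target genes moved the opposite way. Of 13 tested 10 fell, 1 rose and 2 did not pass, where 21.3% of all genes tested fell. The median change was -1.61. Sp5, a zinc finger factor and direct target of beta-catenin, had 1810 reads in the 3 libraries of day 0 and 2 in those of day 1. Its levels were 30.2, 20.7 and 25.3 CPM at day 0 and 0.0305, 0 and 0.0476 CPM at day 1, and the ratio was 929-fold (95% interval of the counts 257 to 7676). It was the largest fall of all genes that met the level of 5 CPM (adjusted p = 1.11e-05). Among the 9 Wnt targets with a RefSeq promoter entry, Sp5 was also the only one in which the TCF/LEF motif CTTTGAT was found on either strand of the 300 bases around the start, which is why its upstream sequence is shown. The motif lies 104 to 98 bases before the start and is in capitals in the 150 bases before it on the plus strand (chr2:70474773-70474922, GRCm38.p6). It occurs in 3.73% of the 32851 promoters.
Sp5: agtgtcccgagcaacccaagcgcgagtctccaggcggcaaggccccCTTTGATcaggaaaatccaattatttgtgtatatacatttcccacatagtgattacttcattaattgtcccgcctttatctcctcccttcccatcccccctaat

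Cdx1, a caudal homeobox gene, was at 73.4, 43.1 and 73.3 CPM at day 0 and 0.518, 0.753 and 1.43 CPM at day 1, a log2 change of -6.23 ± 0.28 (adjusted p = 2.32e-05). Its paralog Cdx2 was at 5.04, 1.37 and 2.38 CPM at day 0 and 0.0305, 0.125 and 0.285 CPM at day 1, a change of -4.43 ± 0.69. Axin2, a scaffold of the destruction complex and the usual readout of Wnt signalling, was at 82.6, 61.8 and 67.9 CPM at day 0 and 31.8, 20.2 and 18.7 CPM at day 1, a change of -1.61 ± 0.12 (adjusted p = 1.48e-04). Cdx1 and Cdx2 were thus at most at 1.43 CPM at day 1, whereas Axin2 kept at least 18.7 CPM. Rnf43, a ubiquitin ligase that removes Frizzled receptors, had 110 reads at day 0 and 3 at day 1, a ratio of 37.6-fold (95% interval of the counts 12.5 to 185). The secreted inhibitor Dkk1 fell from 1.97, 1.44 and 1.32 to 0.305, 0.376 and 0.0951 CPM and the membrane inhibitor Apcdd1 from 16.2, 21.0 and 26.96 to 7.04, 8.22 and 8.70 CPM. T (Brachyury), the T-box factor of the primitive streak, fell from 4.98, 1.505 and 2.23 to 0.427, 0.816 and 0.476 CPM, and with the spread of all 23 libraries it did not pass (adjusted p = 0.263). Nkd1, an inhibitor of Dishevelled, and the transcription factor Tcf7 also fell, with changes of -1.21 ± 0.29 and -0.50 ± 0.11. Without the Neural course they were at an adjusted p of 0.0569 and 0.0957, and Nkd1 was at 0.0507 without the EpiSC course. Lef1, a transcription factor that is both an effector and a target of the pathway, went against the list and rose from 6.20, 2.55 and 2.33 to 121, 24.8 and 26.2 CPM (3.78 ± 0.22, adjusted p = 5.80e-05). Notum, a secreted enzyme that inactivates Wnt ligands, was at 46.8, 45.9 and 46.0 CPM at day 0 and 47.3, 47.6 and 45.9 CPM at day 1 and its 6 libraries differed by less than 2 CPM. Znrf3 changed by -0.37 ± 0.14 (adjusted p = 0.0788), and Lgr5 was below the filter.

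Genes of the LIF and Stat3 pathway fell in part. Of 10 tested 6 fell, 1 rose and 3 did not pass, where 21.3% of all genes tested fell. The median change was -0.85. Socs3, the feedback inhibitor of Jak signalling, was at 87.7, 74.8 and 59.1 CPM at day 0 and 4.36, 6.399 and 4.95 CPM at day 1, a log2 change of -3.83 ± 0.18 (adjusted p = 2.95e-05). Bcl3, a nuclear IkB protein induced by Stat3, was at 46.7, 37.1 and 37.6 CPM at day 0 and 3.54, 3.83 and 3.71 CPM at day 1, a change of -3.46 ± 0.14. Stat3 itself, which activates its own transcription, was at 117, 123 and 125 CPM at day 0 and 26.8, 29.5 and 25.1 CPM at day 1, a change of -2.17 ± 0.091 (adjusted p = 2.08e-05). The values of the 3 courses at day 1 lay close together for these genes, within 3 CPM for Socs3 and 5 CPM for Stat3. The receptor subunit Il6st (gp130) fell, with a change of -1.29 ± 0.084, while the ligand-specific subunit Lifr rose by 0.40 ± 0.079. The AP-1 factor Junb and the kinase gene Pim1 fell as well, with changes of -1.47 and -0.41. Without the Neural course Junb, Pim1 and Lifr were at adjusted p of 0.066, 0.178 and 0.0787, and Junb was at 0.064 without the EpiSC course. Socs2, Cish and Pim3 changed by 0.10, -0.30 and -0.12 without passing, and Osmr was below the filter. Of the 10 genes with a promoter entry, Cish alone held the Stat motif TTCCNGGAA, which 1.15% of all promoters hold.

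**Figure D2:**
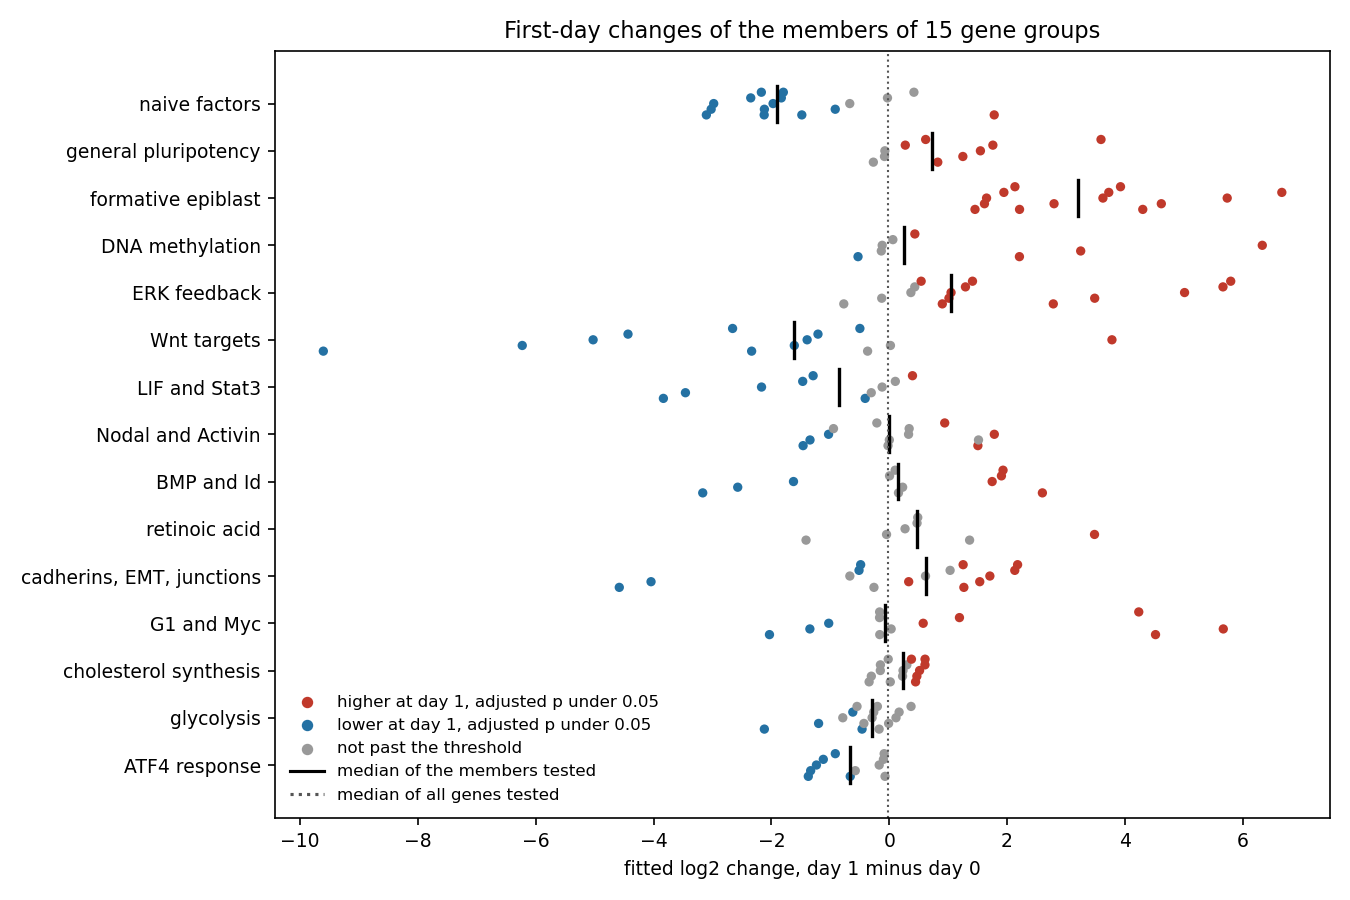
Fitted log2 change from day 0 to day 1 (horizontal axis) of each tested member of 15 gene groups (vertical axis), red and blue where the adjusted p was under 0.05, grey otherwise, with a bar at the median of each group and a dotted line at the median of all genes. The formative genes all lie right of 0, the naive and Wnt groups have medians of -1.90 and -1.61, and those of glycolysis and cholesterol synthesis are -0.29 and 0.23.

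Among the Nodal and Activin genes, Lefty1 and Lefty2 split by course. Of 13 tested 3 rose, 3 fell and 7 did not pass, with a median of 0.0021. Among all genes tested 18.9% rose and 21.3% fell. Lefty2, a Nodal antagonist and direct Smad2/3 target, was at 28.8, 24.1 and 28.8 CPM at day 0 and 74.5, 35.1 and 1.95 CPM at day 1, and Lefty1, its neighbour on chromosome 1, was at 7.29, 4.78 and 8.65 CPM at day 0 and 37.6, 37.3 and 3.38 CPM at day 1. In both genes the EB and EpiSC libraries were above day 0 and the Neural library was below it. EB was grown in suspension with serum and EpiSC with both Fgf2 and Activin A, so a cause cannot be told apart and was not tested. Neither gene passed over the 3 courses (adjusted p = 0.868 and 0.164). Lefty2 passed in opposite directions when 1 course was left out. Its log2 change was 0.97 without Neural (adjusted p = 0.0187) and -1.12 without EB (adjusted p = 0.00613). Skil, a repressor of Smad proteins that Smads induce, rose by 1.51 ± 0.29, and Foxh1, the DNA-binding partner of Smad2, by 0.94 ± 0.15. The effector Smad3 fell from 38.7, 55.7 and 46.0 to 17.4, 19.3 and 17.9 CPM, the receptor Acvr1b from 54.1, 48.0 and 60.0 to 14.8, 21.3 and 23.8 CPM and the proprotein convertase Pcsk6 from 113, 99.4 and 117 to 68.1, 46.5 and 48.4 CPM. With the spread of all 23 libraries Foxh1 and Pcsk6 did not pass (adjusted p = 0.277 and 0.0942). Nodal and its coreceptor Tdgf1 changed by 0.0021 and -0.020, neither past the threshold.

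Of 11 BMP and Id genes tested 4 rose, 3 fell and 4 did not pass, where 18.9% of all genes rose and 21.3% fell. Id1, an inhibitor of differentiation induced by BMP, was at 2.16, 2.03 and 2.48 CPM at day 0 and 26.7, 3.95 and 4.09 CPM at day 1. Its level in EB was thus apart from the other courses. Id3, a further member of the family, was at 1.64, 3.08 and 2.88 CPM at day 0 and 21.0, 11.7 and 12.7 CPM at day 1, a change of 2.60 ± 0.35 (adjusted p = 0.00161), and Id2 rose by 1.93 ± 0.39. Id4 went the other way, from 9.57, 10.2 and 12.7 to 1.58, 2.57 and 1.43 CPM (-2.57 ± 0.26), as did the homeobox gene Msx2 (-3.17 ± 0.47). The ligand Bmp4 rose from 3.10, 1.18 and 1.97 to 8.63, 5.90 and 6.04 CPM. Id1 was called over all courses (1.90 ± 0.59, adjusted p = 0.0397) but not without the EpiSC course (adjusted p = 0.0537), and neither Id1 nor Id2 passed with the spread of all 23 libraries (adjusted p = 0.252 and 0.125). Among the Fgf ligands and receptors, 2 of 6 tested rose. Fgfr2 rose by 0.89 ± 0.11 and Fgfbp1, which releases Fgf ligands from the matrix, by 3.46 ± 0.23, while Fgf4 and Fgfr1, which carry the signal in these cells, changed by -0.088 and -0.24 without passing.

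The courses were compared without a test, since each holds 1 library a day. Among the 11107 genes tested with at least 5 CPM in 1 library, the change in EB lay above both other courses by over 1 on the log2 scale for 195 genes and below both for 188. The same counts were 23 and 13 for EpiSC and 12 and 32 for Neural. The standard deviation over genes of the difference in change was 0.31 between EpiSC and Neural, 0.52 between EB and EpiSC and 0.52 between Neural and EB. The EB course, grown in suspension with serum, was thus the one furthest from the others. The 5 genes with the lowest change in Neural relative to both other courses included Lefty2, Lefty1, Egr1 and Chst15. Vrtn, a vertebra number gene, was at 1.34, 0.523 and 0.911 CPM at day 0 and 31.97, 1.25 and 1.38 CPM at day 1 and passed over all courses (2.80 ± 0.83, adjusted p = 0.0346) but not without EB (adjusted p = 0.0943). Bnip3, a mitophagy receptor induced by hypoxia, reached 111 CPM in EB and stayed at 38.8 and 30.5 CPM in the other courses. Lad1, a basement membrane protein gene, was at 5.92, 10.2 and 7.89 CPM at day 0 and 5.18, 0.376 and 0.190 CPM at day 1, so that EB alone kept its level, and Slc46a3 had changes of 3.21, 0.43 and -0.24. Chst15, a sulfotransferase, was at 2.73, 1.11 and 0.860 CPM at day 0 and 26.6, 12.6 and 2.76 CPM at day 1.

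Of the genes that respond to retinoic acid, Stra8 and Rarb were lowest in EB at day 1. Stra8, a meiotic entry gene induced by retinoic acid, was at 19.6, 23.7 and 19.4 CPM at day 0 and 1.10, 55.1 and 78.5 CPM at day 1. Rarb, a retinoic acid receptor that is its own target, was at 4.68, 3.08 and 5.06 CPM at day 0 and 0.670, 6.96 and 9.46 CPM at day 1. The EB library of day 1 was below all day 0 libraries for both genes, and the EpiSC and Neural libraries were above all of them. Over the 3 courses neither passed, and 1 of 7 tested genes of the list did, Crabp2, a retinoic acid-binding protein, which rose in all courses from 0.607, 0.785 and 0.911 to 7.92, 7.09 and 10.5 CPM. Without the EB course 6 genes of the list rose and 1 fell, where 24.9% of all genes rose and 26.6% fell, Rarb with a log2 change of 1.02 (adjusted p = 4.86e-05) against -0.045 over all courses. The change of Hoxa5 was also lowest in EB, with per-course changes of -1.11, 2.73 and 2.69. The chloride channel gene Ano1 and the zinc finger gene Zbtb7c had changes of -0.98, 2.97 and 2.56 and of -2.34, 1.18 and 0.96.

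The genes furthest apart in EpiSC were mostly predicted ones. Gm10718, Gm11168, Gm17535, Gm10719 and Gm10800 were at 14.3 to 93.5 CPM in the EpiSC library of day 1 and below 7.5 CPM in the other 5 libraries, and the first 4 lie beside each other on chromosome 9 between positions 3003346 and 3035805 (GRCm38). Reads of such predicted genes may be shared between copies, so these values are uncertain. In the Neural course Luzp4, Ott, Gm15097 and Gm15128, which lie on chromosome X, had the highest changes relative to the other courses at levels under 8 CPM, and the Neural library was the lowest of day 0 for all 4. Slc24a5, Mirg, Gfod1, Gm27000 and Gm27300 lay below the other courses in EpiSC, Mirg with changes of 0.82, -0.90 and 0.39, and for all 5 the EpiSC library was the highest of day 0.

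**Figure D3:**
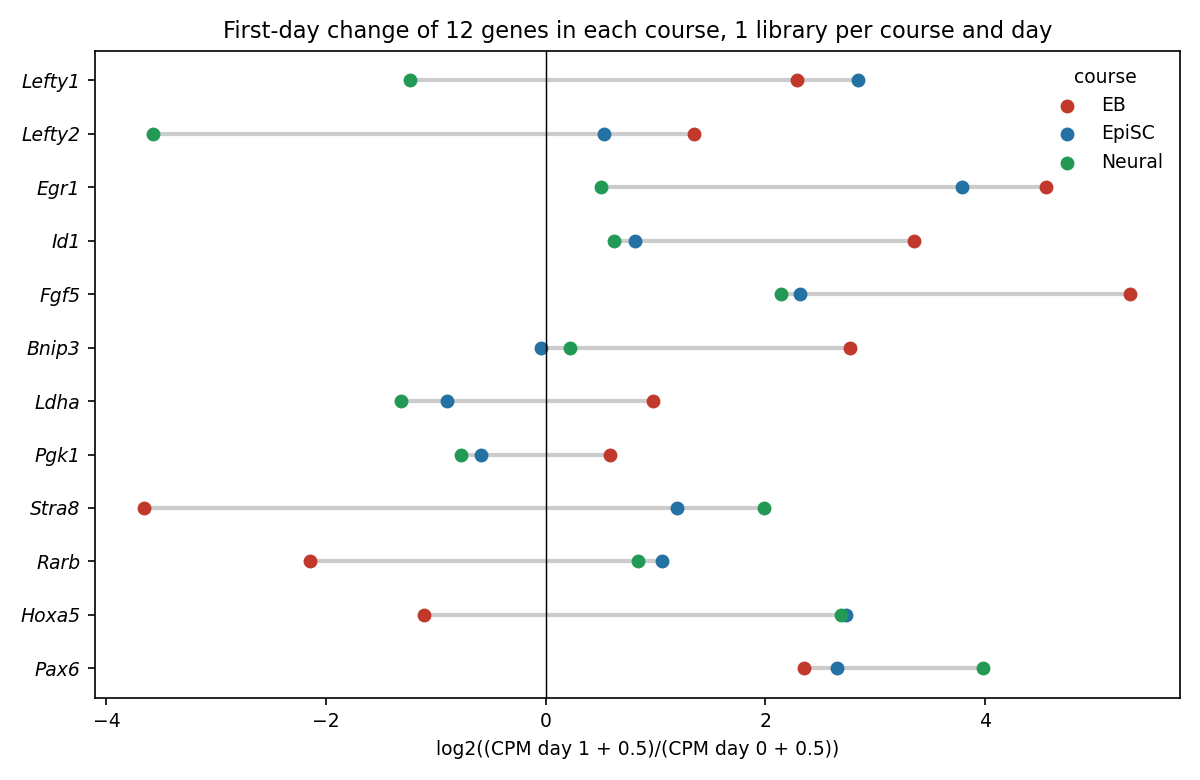
Change of 12 genes over the first day as log2((CPM at day 1 + 0.5)/(CPM at day 0 + 0.5)) on the horizontal axis, 1 point per course (EB red, EpiSC blue, Neural green) and a grey line over their range. The Neural point lies furthest left for Lefty1, Lefty2 and Egr1, and the EB point lies furthest left for Stra8, Rarb and Hoxa5 and furthest right for Id1, Fgf5, Bnip3, Ldha and Pgk1.

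The adhesion genes changed in both directions. Of 15 cadherin, EMT and junction genes tested 7 rose and 4 fell, where 18.9% of all genes rose and 21.3% fell. The gap junction gene Gjb5 was at 27.3, 24.7 and 19.7 CPM at day 0 and 1.16, 1.13 and 0.713 CPM at day 1, a log2 change of -4.58 ± 0.17 (adjusted p = 1.33e-05), and was thus at most at 1.16 CPM in every course at day 1. Epcam, an epithelial adhesion molecule, rose from 15.5, 13.6 and 12.1 to 109, 53.7 and 38.8 CPM (2.18 ± 0.22), and P-cadherin (Cdh3) rose by 1.54 ± 0.36. E-cadherin (Cdh1) fell from 464, 425 and 412 to 359.5, 308 and 252 CPM and Vim from 233, 243 and 228 to 163, 167 and 172 CPM, while N-cadherin (Cdh2) rose by 1.27 ± 0.27 at under 9 CPM. Without the Neural course Cdh1 was at an adjusted p of 0.0523, and with the spread of all 23 libraries Cdh1, Cdh2, Cdh3 and Vim did not pass (adjusted p = 0.436, 0.3, 0.191 and 0.286). Among the EMT factors Zeb2 rose by 2.13 ± 0.48 (adjusted p = 0.0129, and 0.051 without the Neural course), while Snai1, Snai2 and Zeb1 did not pass (-0.67, 0.62 and -0.26). Without the Neural course 4 genes of the list rose and 3 fell, where 11.0% of all genes tested rose and 12.7% fell.

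Among 12 G1 cyclins, Cdk inhibitors and Myc genes 5 rose and 3 fell, where 18.9% of all genes rose and 21.3% fell. Ccnd2 (cyclin D2) was at 0.850, 0.131 and 1.01 CPM at day 0 and 20.9, 63.7 and 44.5 CPM at day 1, a change of 5.67 ± 0.49 (adjusted p = 2.72e-04), and here the EB library was the lowest at day 1. Myc was at 2.06, 1.05 and 1.62 CPM at day 0 and 41.0, 26.3 and 23.1 CPM at day 1, a change of 4.24 ± 0.19 (adjusted p = 2.32e-05), whereas Mycl fell, with a change of -1.35 ± 0.12, and Mycn did not pass (-0.16 ± 0.25). Cdkn1c, the imprinted Cdk inhibitor p57, rose from 0.911, 0.131 and 0.860 to 20.9, 11.7 and 11.8 CPM. The inhibitors Cdkn1a (p21) and Cdkn1b (p27) fell, from 90.2, 48.9 and 73.3 to 18.04, 16.5 and 16.3 CPM and from 44.4, 46.3 and 53.0 to 21.6, 23.8 and 25.1 CPM, and Cdkn2a did not pass (-0.16 ± 0.16, adjusted p = 0.448). Ccne1 (cyclin E1) rose by 1.19 ± 0.17, with 365 CPM in EB against 223 and 193 CPM in the other courses, and Ccnd1 and Ccnd3 did not pass (0.033 and -0.16).

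Of 15 glycolysis genes tested 4 fell and none rose, where 21.3% of all genes tested fell and 18.9% rose. The median change of the 15 was 0.48 in EB, -0.57 in EpiSC and -0.67 in Neural. Hk1, a hexokinase, was at 119.9, 123 and 117 CPM at day 0 and 23.7, 32.4 and 27.5 CPM at day 1, a log2 change of -2.12 ± 0.11 (adjusted p = 3.50e-05), and the glucose transporter gene Slc2a3 fell as well, with a change of -1.20 ± 0.12. Ldha, lactate dehydrogenase, was at 426, 319 and 334 CPM at day 0 and 841, 171 and 134 CPM at day 1, and Tpi1, triosephosphate isomerase, was at 213, 239 and 252 CPM at day 0 and 306, 95.05 and 87.3 CPM at day 1. For both, the EB library was above day 0 and the other courses were below it, and neither passed (-0.43 ± 0.41 and -0.79 ± 0.38). Without the EB course 13 of the glycolysis genes fell, where 26.6% of all genes tested fell. The serine synthesis and ATF4 list had 6 falls among 11 genes tested and no rise, with medians of -0.89, -0.65 and -0.69 in the 3 courses. With the spread of all 23 libraries the list had 3 falls, where 14.7% of all genes tested fell. Asns, asparagine synthetase, was at 595, 670.4 and 705 CPM at day 0 and 257, 254 and 248 CPM at day 1, a change of -1.37 ± 0.089 (adjusted p = 8.71e-05), and Psat1, of the serine pathway, also fell, with a change of -0.91 ± 0.11. Of 15 cholesterol synthesis genes 6 rose and none fell, all by less than 0.62 on the log2 scale, and 1 of them rose without the EpiSC course and 1 without the Neural course. Their median change was -0.12 in EB, 0.41 in EpiSC and 0.44 in Neural.

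At the X inactivation centre all 5 genes tested rose, where 18.9% of all genes tested rose. Xist, the RNA that coats the inactive X chromosome, was still at 2.04, 1.38 and 1.62 CPM after 1 day, against 0.304, 0.0654 and 0.152 CPM, a log2 change of 3.17 ± 0.42 (adjusted p = 0.00151). The Xist value of EpiSC at day 0 lay under the 0.200 CPM that 3 reads make in that library. Tsix, the antisense partner of Xist, went from 5.34, 6.35 and 4.86 to 11.1, 9.79 and 8.65 CPM. Tsx, which lies beside Tsix, rose by 2.48 ± 0.37, Rlim (Rnf12), a ubiquitin ligase that activates Xist, by 0.54 ± 0.074, and Ftx by 1.14 ± 0.35. Ftx did not pass without the Neural course (adjusted p = 0.209) or in DESeq2 (0.0684), and Jpx was below the filter. Xist and Tsix overlap on opposite strands, and the reads were counted by strand.

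Lineage markers were mostly close to 0 on both days. On the 5 lists of mesendoderm, neural, extraembryonic endoderm, trophoblast and fibroblast markers, 8 genes exceeded 10 CPM in any of the 6 libraries, namely Eomes, Sox1, Pax6, Nes, Tubb3, Gata6, Tfap2c and Pdgfrb. Tfap2c, a factor of trophoblast and germ cells that naive ESCs also express, fell from 64.9, 59.7 and 67.4 to 0.823, 2.07 and 3.90 CPM (-4.99 ± 0.37, adjusted p = 1.65e-04). The organizer gene Gsc (goosecoid) fell from 6.10, 7.52 and 7.39 to 0.0305, 0.125 and 0.0951 CPM (-6.45 ± 0.36). Pdgfrb, a growth factor receptor, fell from 14.8, 14.3 and 17.8 to 1.95, 3.01 and 2.47 CPM. In the neural list Pax6 rose by 3.42 ± 0.36 to 6.89, 15.4 and 20.3 CPM and Sox1 to 5.39, 15.5 and 18.4 CPM, so both were lowest in EB. Nes and Tubb3 fell, with changes of -0.85 and -0.90, and Neurog2 and Hes5 were at or near 0. Sox1 did not pass without the EpiSC or the Neural course (adjusted p = 0.0738 and 0.075), and Sox1, Nes and Tubb3 did not with the spread of all 23 libraries (0.485, 0.0726 and 0.218). Gata6, a factor of the primitive endoderm, rose by 3.18 ± 0.39 to at most 10.3 CPM, and Gata4, Dab2 and Sox7 stayed under 2 CPM.

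Long non-coding RNAs moved up more often than down. Of 205 lincRNA genes tested 55 rose and 22 fell, which is 26.8% and 10.7%, against 19.2% and 22.0% of 13130 protein-coding genes. Small RNA genes had few calls, with 1 rise and 1 fall among 90 snoRNA genes and 9 rises and 13 falls among 134 miRNA genes. No test was made of these shares.

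The first day from 2iL was then set against the first day from serum with LIF (SL), in which ESCs were differentiated by the same 3 courses. For SL there was 1 library at day 0 for all courses and 3 at day 1, so the test assumes that the single SL library at day 0 varies like the other groups. The change differed between the media for 1639 of 15578 genes tested by edgeR's interaction term, and it was higher from 2iL for 917 (5.89%) and lower for 722 (4.63%). Higher changes were 55.9% of these calls, and 68.1% when library totals replaced the TMM factors. The count was 160 without the EpiSC course, 335 without the Neural course and 488 with the spread of all 45 libraries, and it was 2570 with the course as a replicate block. The SL cultures also held RNA of extraembryonic endoderm markers, since the 8 markers summed to 411 CPM at day 0 and 718 to 1504 CPM at day 1, against 3.14 to 4.92 CPM at day 0 and 11.7 to 17.6 CPM at day 1 from 2iL. Their part in the differences was not tested.

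The media differed in the levels of ERK and Wnt genes at day 0. Of 16 ERK feedback genes tested 10 had a higher change from 2iL and none a lower one, and the 10 became 4 without the EpiSC course, 6 without the Neural course and 5 with the spread of all 45 libraries. Spry4 was at 1.64 to 2.43 CPM in 2iL and at 118 CPM in SL before differentiation, and at day 1 from SL it was at 216, 147 and 127 CPM, which gave changes of 5.64 from 2iL and 0.47 from SL and a difference of 5.18 ± 0.38 (adjusted p = 1.66e-04). Dusp6 was at 98.5 CPM in SL at day 0 and at 122, 128 and 105 CPM at day 1, a difference of 3.23 ± 0.34 (adjusted p = 6.82e-04). At day 1 the media overlapped for Dusp6, while Spry4 was higher from SL in every course. Fos, an immediate early factor, had changes of -4.27 from SL and -0.63 from 2iL (difference 3.64 ± 0.75, adjusted p = 0.016). Of 13 Wnt targets tested 8 had a lower change from 2iL and none a higher one, and the 8 became 2 without the EpiSC course, 5 without the Neural course and 2 with the spread of all 45 libraries. Axin2 was at 15.1 CPM in SL at day 0 and at 34.1, 30.3 and 27.3 CPM at day 1, a difference of -2.60 ± 0.37 (adjusted p = 0.00321). Dkk1 was at 3.05 CPM and at 21.9, 17.1 and 8.96 CPM, so its changes had opposite signs in the media, -2.61 from 2iL and 2.39 from SL (difference -5.00 ± 0.76, adjusted p = 0.00441). Notum had changes of 0.021 from 2iL and 2.11 from SL (difference -2.09 ± 0.21, adjusted p = 5.79e-04). Without the EpiSC course Fos, Axin2 and Dkk1 did not pass (adjusted p = 0.158, 0.0568 and 0.0656), and with the spread of all 45 libraries Dusp6, Axin2 and Notum did not (0.0808, 0.107 and 0.387).

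**Figure D4:**
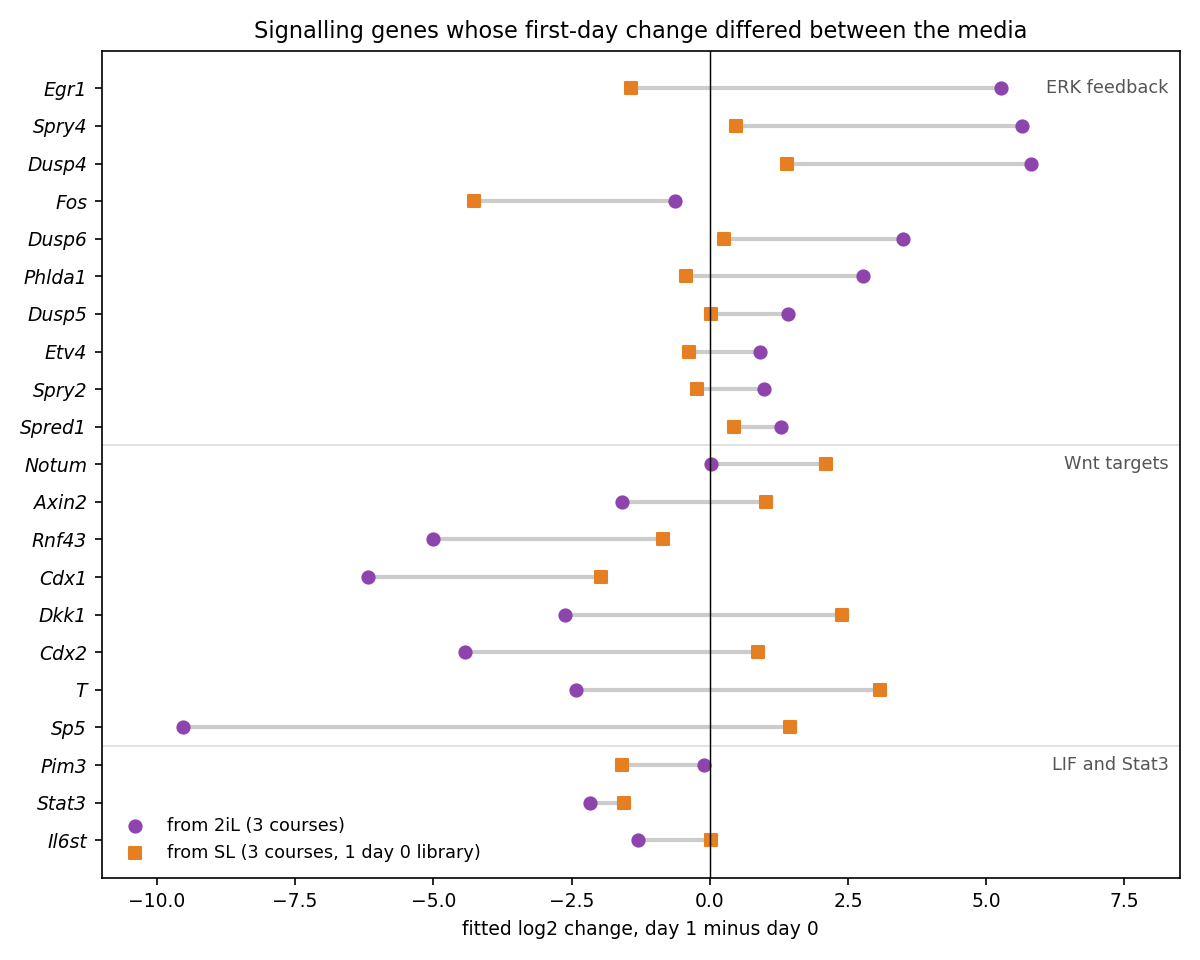
Fitted log2 change over the first day (horizontal axis) for the 21 ERK, Wnt and LIF pathway genes whose change differed between the media at an adjusted p under 0.05, from 2iL (purple circles) and from SL (orange squares). The points of Spry4 lie at 5.64 from 2iL and 0.47 from SL, and those of Dkk1 at -2.61 and 2.39.

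Of 11 LIF and Stat3 genes tested 2 had a lower and 1 a higher change from 2iL, where 4.63% and 5.89% of all genes tested did. Without the EpiSC or the Neural course 1 of them passed. Socs3 changed by -3.84 from 2iL and -3.64 from SL (difference -0.20 ± 0.43, adjusted p = 0.816), and Bcl3 by -3.46 and -3.03. A p above the threshold does not show that the media act alike. Il6st changed by -1.29 from 2iL and 0.021 from SL (adjusted p = 0.00159). Among 16 naive factors 4 had a lower and 2 a higher change from 2iL. Prdm14 was at 12.7 CPM in SL against 48.2 to 55.1 CPM in 2iL at day 0, and its difference, 2iL minus SL, was -1.91 ± 0.30 (adjusted p = 0.0054). Nanog, Esrrb and Klf4 did not pass, with differences of -0.26 ± 0.28, 0.093 ± 0.21 and 0.088 ± 0.28. In the formative list 3 genes had a higher change from 2iL and 2 a lower one. Utf1 was already at 84.4 CPM in SL at day 0, so its changes were 4.31 from 2iL and 0.52 from SL (difference 3.79 ± 0.28, adjusted p = 1.66e-04). Zic2 went the other way, at 2.42 CPM in SL at day 0 and 31.6, 21.3 and 32.02 CPM in 2iL, with a difference of -2.37 ± 0.41 (adjusted p = 0.00691). Without the EpiSC course Prdm14 was at an adjusted p of 0.086, and with the spread of all 45 libraries Il6st, Prdm14 and Zic2 were at 0.339, 0.316 and 0.207.

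The 5 largest differences in each direction were partly those of the largest changes from 2iL. Higher changes from 2iL were led by D330045A20Rik, Pla2g7, 9330159F19Rik, Egr1 and Soga3. Pla2g7, a secreted phospholipase that hydrolyses platelet-activating factor, differed by 7.41 ± 1.53 (adjusted p = 0.0159) and Soga3 by 6.06 ± 0.56 (adjusted p = 4.99e-04). Lower changes were led by Sp5, Spic, Nkx1-2, Mobp and Gsc. Mobp was at 0.683 CPM in SL at day 0 and at 0.304, 2.60 and 5.22 CPM at day 1, a difference of -8.18 ± 1.62 (adjusted p = 0.0131). Sp5 had 1 read in the SL library of day 0, Nkx1-2 1, T 2, Spic 3 and Gsc 3, and D330045A20Rik and 9330159F19Rik had 2 and 1 reads in the day 0 libraries in 2iL, so their fitted differences depend on the prior count. Without the EpiSC course Pla2g7, Egr1 and Mobp did not pass (adjusted p = 0.137, 0.157 and 0.106), and Mobp was at 0.0655 without the Neural course.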

How the data were processed

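RNA was measured by ribosomal-RNA-depleted, directional sequencing. Per the labels and the study's methods, the authors aligned reads to the mouse genome (GRCm38) with TopHat2, guided by Ensembl release 82, and counted them by gene and strand with featureCounts, and they deposited raw counts per gene for each library, of 35372 gene IDs, of which 435 have no symbol and hold at most 0.0014% of the counts. Tool versions are not given in the sources used here. CPM, TMM factors (from all 45 libraries), fits and tests were computed here with edgeR 4.0.16 (quasi-likelihood, filterByExpr) and R 4.3.3, with DESeq2 1.42.0 as an alternative. Per-course changes used a pseudocount of 0.5 CPM. Genes passed at a Benjamini-Hochberg adjusted p under 0.05 over all genes tested.

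The course in each title paired the samples, since the deviations of same-course libraries correlated at 0.203, 0.36 and 0.396. The single SL day 0 library served all courses, so the comparison of media had no block. Members and gene lists were chosen with earlier results of these data known. Besides list members, the 10 largest rises and falls with at least 5 CPM in the higher day, the 5 genes furthest apart in each course and side, and the 5 largest differences between media in each direction were named, and a few of these genes are not reported here. The scripts were checked on simulated data. Promoter sequences are from RefSeq (GRCm38.p6). Intervals and floors cover counting error only.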

Additional observations from a re-analysis of the deposited data

Results flagged for a closer look

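The change over the first day differed between 2iL and SL for 1639 genes by the interaction test, and the values below are differences of log2 changes, 2iL minus SL, each past an adjusted p of 0.05. All rest on 1 SL library at day 0, and those of Sp5, Spic, Nkx1-2, Gsc, T, Rnf43, D330045A20Rik and 9330159F19Rik rest on 3 reads or fewer in 1 group.

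Among the ERK genes the differences were 5.18 for Spry4, 3.23 for Dusp6, 4.43 for Dusp4, 1.38 for Dusp5, 1.22 for Spry2, 0.86 for Spred1, 1.28 for Etv4, 6.69 for Egr1, 3.64 for Fos and 3.22 for Phlda1. Among the Wnt targets they were -10.98 for Sp5, -2.60 for Axin2, -4.22 for Cdx1, -5.28 for Cdx2, -5.50 for T, -5.00 for Dkk1, -4.15 for Rnf43 and -2.09 for Notum. Without the EpiSC course 4 of the 10 ERK genes and 2 of the 8 Wnt targets passed. Among the LIF genes they were -1.31 for Il6st, -0.61 for Stat3 and 1.48 for Pim3.

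Naive factors differed by -1.46 for Nr5a2, -1.91 for Prdm14, -3.33 for Dppa3, -1.24 for Tfcp2l1, 1.57 for Nr0b1 and 0.63 for Zfp42. Of these, Nr5a2 alone kept its call without the EpiSC course. No naive factor kept it with the spread of all 45 libraries, and Zfp42 lost it whichever course was left out. Formative genes differed by 3.79 for Utf1, -2.37 for Zic2, -1.09 for Zic5 and 2.37 for Sox4. Zic5 and Sox4 lost their calls without the EpiSC or the Neural course, and Zic2 and Zic5 with the spread of all 45 libraries. Outside these groups the differences were -8.52 for Spic, 6.06 for Soga3, -6.87 for Gsc, -8.24 for Nkx1-2, -8.18 for Mobp, 7.41 for Pla2g7, 7.17 for 9330159F19Rik and 8.13 for D330045A20Rik.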

How the results depend on the processing

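The 5620 genes that changed from day 0 to day 1 were 4991 with DESeq2, 4739 with no replicate block and 4672 with the spread of the 23 libraries from 2iL. Leaving out a course gave 3413 to 7153 genes, 1584 to 3452 that rose and 1829 to 3701 that fell. Of the 168 named genes past the threshold, 165 stayed past it with DESeq2, 146 with no replicate block, 117 with the 23 libraries, 143 without EpiSC and 140 without Neural, and none turned its direction. Among genes not past it, leaving out a course gave log2 changes of -1.12 to 0.97 for Lefty2, -0.76 to 1.02 for Rarb, -0.35 to 0.43 for Pfkl and -0.84 to 1.16 for Zbtb7c, with the sign turned and the threshold passed without Neural for Lefty2 and without EB for the others. The 1639 differences between media became 160 to 2097 when a course was left out, with 100 to 1139 higher and 60 to 958 lower from 2iL. They were 2570 with the course as replicate block, of which 1202 were lower, and 488 with the spread of all 45 libraries, of which 292 were higher and 196 lower. With library totals in place of TMM factors 460 were lower. Of the 64 named differences 20 stayed without EpiSC, 28 without Neural and 17 with the 45 libraries. The median change of all genes was 0.046 in EpiSC and 0.038 in Neural with library totals. With a pseudocount of 0.1 CPM, 43 genes lay above and 21 below the other courses in EpiSC, and with 1 CPM 15 lay above in EpiSC and 7 above in Neural. For these changes the cause was not tested. The spread of the single SL library at day 0 was not measured.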

Other observations

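Some genes of the trophoblast and mesendoderm lists rose from low levels. Eomes, a T-box factor on both lists, was at 8.93, 5.36 and 5.46 CPM at day 0 and 17.7, 11.6 and 7.37 CPM at day 1 (0.85 ± 0.18, adjusted p = 0.0106), so its EB library was the highest. Ascl2, a trophoblast factor of the basic helix-loop-helix family, was at 0.972, 0.916 and 0.607 CPM at day 0 and 3.26, 2.13 and 2.28 CPM at day 1 (1.63 ± 0.29, adjusted p = 0.0048). Gata3 and Hand1, which also act in trophoblast, rose to at most 2.14 and 1.34 CPM. Elf5 and Krt7 stayed under 1 CPM. With the spread of the 23 libraries from 2iL Eomes, Gata3 and Hand1 did not pass (adjusted p = 0.5, 0.129 and 0.304), and Gata3 did not without the EpiSC or the Neural course (0.0701 and 0.101).

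Dcn, an extracellular matrix proteoglycan gene on the fibroblast list, had 1 read at day 0 and 93 at day 1, a ratio of 90.6-fold (95% interval of the counts 15.9 to 3617), and it was at 2.62, 0.0627 and 0.285 CPM at day 1, nearly all of it in the EB library. Of the 3 fibroblast genes that were tested, 2 fell, Pdgfrb and Col1a1, and none rose. Col1a1 did not pass without the Neural course (log2 change -1.93, adjusted p = 0.0681). Col1a2, Col3a1 and Lum stayed under 0.3 CPM in all 6 libraries.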
